A study of Mus musculus with 4 samples.

Results

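The G2/M and mitosis genes are 50 genes, taken by name from a list of transcripts that dividing cells make between the end of DNA replication and the separation of the daughter cells. All 50 of 50 were found among the 18695 genes of the deposited counts. RNA was counted as UMIs, 1 tag per captured transcript, in single bone marrow cells of mice, in 4 libraries of 1 genotype and 1 sort each. The GMP sort held granulocyte-monocyte progenitors (Lin-, cKit+, Sca1-, CD34+, CD16/32+), and the Lin-/CD11b+ sort held lineage-negative progenitors together with CD11b+ myeloid cells. Tet2 KO mice carried Mx1-Cre and Tet2 fl/fl alleles, and control mice were Tet2 fl/fl littermates without Mx1-Cre. Every mouse was given pI:pC, an inducer of interferon, 4 times at 12.5 ug/g, and was 8 to 12 weeks old, so the controls carry the treatment but not the recombinase. Mx1-Cre follows interferon and acts in blood cells and in other cells of the body.

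Each genotype came from 1 mouse per the study's tables, and both sorts of a genotype came from the same mouse. The genotypes therefore have no replicate, no test between them was possible, and a difference between genotypes cannot be told apart from a difference between 2 mice or 2 preparations. Intervals given with values are 95% intervals of counting error (exact Poisson for CPM, exact binomial for shares of cells, exact conditional binomial for log2 ratios), and they leave out the variation between cells, mice and preparations.

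The libraries held 1258 (control) and 2719 (Tet2 KO) cells of the GMP sort and 1924 and 3068 cells of the Lin-/CD11b+ sort, with medians of 18713, 15488, 11091 and 10417 UMIs per cell and 22681380 to 42561110 UMIs in all. The study's own table lists the cell numbers of the Tet2 KO GMP and the control Lin-/CD11b+ libraries the other way round. The deposited assignment was used, and in it the GMP libraries held 0 lymphocytes and 0 plasma cells by marker genes, against 55 and 153 in the control Lin-/CD11b+ library. Of all barcodes, 37 were found in more than 1 library. Tet2 UMIs (298 in control and 723, or 17.0 CPM, in Tet2 KO of the GMP sort, and 13.4 and 20.7 CPM in the Lin-/CD11b+ sort) are tags of the 3' end that need not cover the deleted exons, and they check nothing about the deletion.

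A cell enters mitosis when cyclin A and cyclin B activate the kinase Cdk1, and Polo-like and Aurora kinases then build the spindle and join it to the kinetochores of the condensed chromosomes. The anaphase-promoting complex (APC/C), with its activator Cdc20 and its ubiquitin-conjugating enzyme Ube2c, ends mitosis by destroying the cyclins. Most of these transcripts are made late in the cell cycle and lost after division, and in bone marrow they mark the cycling progenitors, which mature granulocytes and antibody-secreting plasma cells no longer are.

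Genes of this class are known for a pair of promoter elements, the cell cycle homology region (CHR, here TTTGAA or TTCGAA on either strand) and the CCAAT box bound by NF-Y. RefSeq promoters of GRCm38.p6, from 250 bases before to 50 after the start, were found for 43 of the 50 genes (47 promoters). They were not found for Tpx2, Smc4, Aurkb, Cdca2, Cdc25c, Dlgap5 and Ccna2. The 150 bases before the start are shown for 9 genes that the results below turn on, 5′ to 3′ along the gene, with letters of the CHR and of the CCAAT box in capitals (on the opposite strand TTTGAA reads as TTCAAA and CCAAT reads as ATTGG).
Cdk1: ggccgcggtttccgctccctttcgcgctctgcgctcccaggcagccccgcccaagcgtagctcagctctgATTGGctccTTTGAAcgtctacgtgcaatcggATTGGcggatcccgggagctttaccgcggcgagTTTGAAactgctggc
Ccnb1: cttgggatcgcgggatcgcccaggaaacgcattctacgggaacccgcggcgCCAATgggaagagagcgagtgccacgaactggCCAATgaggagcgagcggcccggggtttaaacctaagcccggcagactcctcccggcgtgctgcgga
Cks1b: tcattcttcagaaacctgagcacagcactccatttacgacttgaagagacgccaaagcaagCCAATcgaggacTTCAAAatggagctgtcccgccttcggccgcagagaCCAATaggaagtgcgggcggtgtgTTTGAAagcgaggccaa
Cdc20: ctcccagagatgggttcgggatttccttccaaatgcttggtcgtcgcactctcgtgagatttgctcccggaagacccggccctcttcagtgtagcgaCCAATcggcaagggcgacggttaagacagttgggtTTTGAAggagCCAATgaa
Ube2c: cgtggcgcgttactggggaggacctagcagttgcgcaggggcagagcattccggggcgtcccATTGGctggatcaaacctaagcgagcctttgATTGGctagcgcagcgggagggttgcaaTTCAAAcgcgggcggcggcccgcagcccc
Top2a: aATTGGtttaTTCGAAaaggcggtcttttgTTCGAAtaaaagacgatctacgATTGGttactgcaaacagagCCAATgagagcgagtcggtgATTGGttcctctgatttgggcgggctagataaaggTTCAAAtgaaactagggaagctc
Hmgb2: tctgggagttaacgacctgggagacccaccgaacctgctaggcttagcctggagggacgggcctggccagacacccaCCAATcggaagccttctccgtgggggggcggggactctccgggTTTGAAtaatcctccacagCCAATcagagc
Birc5: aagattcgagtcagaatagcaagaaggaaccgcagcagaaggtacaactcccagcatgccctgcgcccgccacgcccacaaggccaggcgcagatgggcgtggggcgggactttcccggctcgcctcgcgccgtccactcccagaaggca
Nusap1: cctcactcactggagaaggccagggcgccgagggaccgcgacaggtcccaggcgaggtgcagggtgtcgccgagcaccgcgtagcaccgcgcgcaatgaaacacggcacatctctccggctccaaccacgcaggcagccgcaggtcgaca
A CHR was present in 36 of the 47 promoters (76.6%), against 15.28% of 16619 promoters of genes in the counts and 19.23% of all 32851 promoters. CCAAT was present in 38 (80.85%), against 37.1% and 37.41%. Both were present in 31 (65.96%), against 6.101% and 7.525%, and 30 (63.83%) held CCAAT more than once, against 13.01% and 11.7%. Of 49 CHR matches, 34 lay within 50 bases of the start, and the median of their first bases was -19. The median of the 100 CCAAT matches was -67. These are matches of letters and not sites of binding. Birc5, the survivin subunit of the chromosomal passenger complex, and Nusap1, a spindle microtubule binder, showed no match in the stretch printed. Cdk1 at chr10:69352913-69353062 showed both elements, and Ccnb1, which encodes cyclin B1, at chr13:100786487-100786636 showed CCAAT alone.

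The levels of the members were far from even. Hmgb2, a chromatin protein that is also made outside mitosis, took 251425 UMIs over the 4 libraries, 34.0% of all member UMIs. Next came Cks2 (63482 UMIs, 8.58%) and Cks1b (45714, 6.18%), the small subunits bound to cyclin-dependent kinases. Tubb4b, a beta tubulin, had 30985 UMIs, Birc5 27003, Top2a, the topoisomerase that untangles sister chromosomes, 25312, and Ube2c 23578. Smc4, a condensin subunit, had 21983, the histone chaperone Anp32e 21562, the centromeric histone Cenpa 15528, the lamina protein Tmpo 15255 and Cdk1 14609. The fewest UMIs, 614, belonged to Gtse1, a microtubule-associated protein. UMIs are counted at 3' ends and were not divided by length, and Hmgb2, Tubb4b and Cks1b have near copies elsewhere in the genome whose sharing of reads could not be checked. Hmgb2 weighs on every sum below, with a share of member UMIs from 27.8% in early progenitors to 48.9% in neutrophils of the control Lin-/CD11b+ library.

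To ask whether the list behaves as 1 programme in these cells, each member was correlated over cells with the sum of the other members, after every cell was thinned to 5000 UMIs. The median of Pearson's r over the 50 members was 0.32 in the control GMP library (1258 cells), 0.27 in the Tet2 KO GMP library (2719 cells), 0.46 in the control Lin-/CD11b+ library (1924 cells) and 0.40 in the Tet2 KO Lin-/CD11b+ library (3068 cells). The points are cells of 1 library that share its preparation, and these values are descriptions. In the control GMP library Hmgb2 (r = 0.65), Ube2c (0.65), Birc5 (0.57), Nusap1 (0.55) and Cenpa (0.51) followed the others most closely. In the control Lin-/CD11b+ library the leading members were Hmgb2 (0.74), Ube2c (0.73), Birc5 (0.72), Nusap1 (0.67) and Top2a (0.66). Birc5 and Nusap1 stand among the leaders although their printed promoter stretches hold neither set of letters.

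Gtse1 (0.08), Ect2 (0.13), which starts cytokinesis, the phosphatase Cdc25c (0.14), the cytokinetic ring protein Anln (0.15) and the centrosomal kinase Nek2 (0.15) were lowest in the control GMP library. All of these are members with few UMIs. Abundance did not set r alone, as Lbr, the lamin B receptor, and Tmpo had r of 0.19 and 0.18 in that library with 74.3 and 99.1 CPM, levels close to those of Ccnb2 (91.0 CPM), the cyclin B2 gene. Both proteins belong to the nuclear envelope of interphase cells as well.

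**Figure D1:**
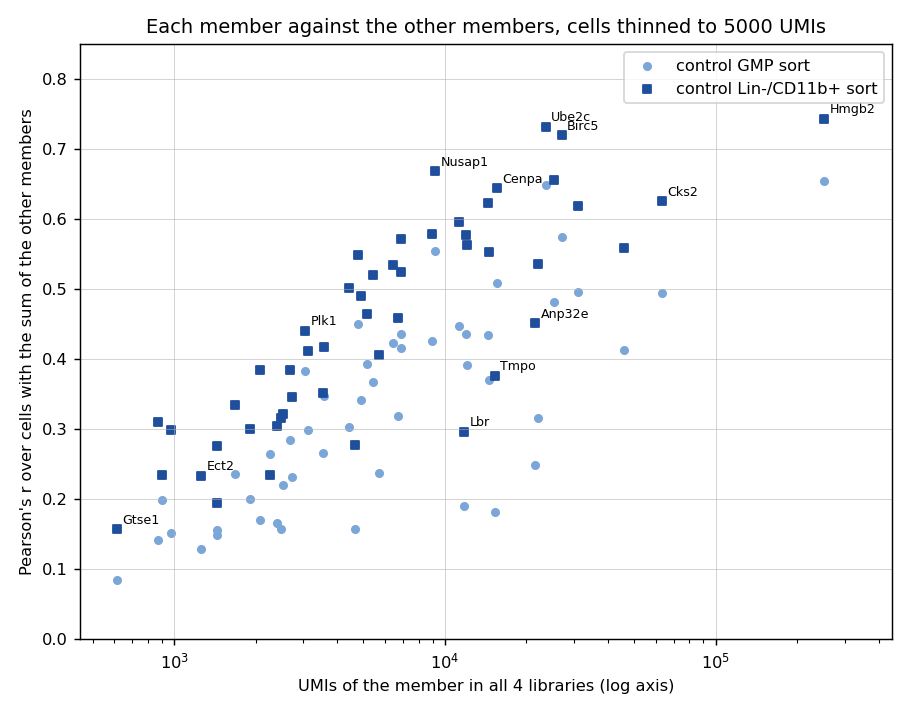
Pearson's r of each member with the sum of the other 49 members over cells (vertical axis) against its UMIs in the 4 libraries (horizontal, log axis), for the control GMP sort (circles) and the control Lin-/CD11b+ sort (squares). Hmgb2, Ube2c and Birc5 lie at the top in both, and Gtse1 with 614 UMIs lies at the bottom at 0.08 and 0.16.

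A score was formed for each cell as the percentage of its UMIs that belong to the 50 members, and cells at or above 1% of 5000 thinned UMIs were counted. In the control GMP library 172 of 1258 cells (13.7%) were at or above the limit, and without thinning 13.2%. Those cells had a UMI for a median of 23 members, against 9 in the cells below. The members make up the score, so this difference was fixed in advance. The concentration of member UMIs in these cells, given next, was in part fixed in the same way. Ube2c was the member most confined to them, with 63.1% of its UMIs in 13.7% of the cells, followed by Nusap1 (58.2%) and Plk1 (57.3%), the Polo-like kinase. Hmgb2 had 27.4% of its UMIs there and was found in 98.6% of the cells below the limit. The score is a range and not a cell type, and 95, 268, 128 and 231 cells of the 4 libraries (control and Tet2 KO of the GMP sort, then of the Lin-/CD11b+ sort) lay within 10% of the limit.

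Cells were placed in gates by marker genes counted in 5000 thinned UMIs. The gates are early progenitors (Hlf, Procr, Meis1 and others), GMPs with high primary granule genes (Mpo, Elane, Prtn3, Ctsg) that carry monocytic genes (mono-biased), granulocytic genes (neutro-biased), both or neither, monocytes, neutrophils, plasmacytoid lineage, basophil lineage, MHC class II high cells, lymphocytes and plasma cells. No gate used a member. The gates are approximate: 70.5% of cells kept their gate when full counts were used and 60.6% kept it when clusters made without the members were named in their place. In the control Lin-/CD11b+ library the early progenitor list summed to 1007 CPM in its gate and 32.2 CPM in monocytes, and the monocyte list to 127 CPM and 8059 CPM. Most genes of these lists also set the gates, so high levels in the own gate were fixed in advance and are no independent check. Gates under 50 cells in a library were not compared.

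In the control Lin-/CD11b+ library the summed level of the 50 members was highest in the plasmacytoid lineage at 10346 CPM (10129 to 10566, 102 cells) and in monocytes at 10039 CPM (9919 to 10160, 310 cells). The intervals of these 2 gates overlap. Neutrophils (7173 CPM), mono-biased GMPs (6895), early progenitors (6310), GMPs with both gene sets (6304) and lymphocytes (5755) followed, and the lowest progenitor levels were in GMPs with neither set (5281), neutro-biased GMPs (5268) and the basophil lineage (5112), whose intervals overlap. The place of neutrophils turned on the scale. Without Hmgb2 they stood at 3666 CPM, below neutro-biased GMPs (3711) and mono-biased GMPs (4469). Over UMIs without immunoglobulin and neutrophil marker genes they stood at 13321 CPM, above the plasmacytoid lineage (10437). Plasma cells stood at 763 CPM (729 to 799) and are read here as background. Free RNA, doublets and dividing cells within the gate were not told apart in it. The 3 cells of this gate with a score of 1% or more stood at 11358 CPM, and the cells below at 489 CPM. In Tet2 KO the plasma cell gate stood at 728 CPM (-0.07). Of 29 measured members 0 were 1.5-fold higher beside 16.2% of genes and 2 were lower beside 5.85%. Immunoglobulin transcripts took 68.3% of the UMIs of plasma cells, and over the other UMIs, without neutrophil marker genes, the members stood at 2420 CPM there.

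The share of cells at or above 1%, with Hmgb2 counted in the score, gave a similar picture. Without Hmgb2 the 90th percentile of the score was 0.76% in neutrophils and 0.88% in mono-biased GMPs. In early progenitors it was 1.06%, and in neutro-biased GMPs 0.65%. The share itself, given next, includes Hmgb2. It was 38.4% of monocytes (32.9 to 44.1), 36.3% of the plasmacytoid lineage (102 cells), 27.9% of neutrophils (20.8 to 35.9), 20.9% of mono-biased GMPs (17.1 to 25.1), 19.3% of early progenitors (12.5 to 27.7) and 8.06% of neutro-biased GMPs (3.94 to 14.3). In plasma cells it was 3 of 153 cells (1.96%). The median depth of those plasma cells was 14993 UMIs, most of them immunoglobulin, and that of monocytes 8266. The part of depth and of immunoglobulin UMIs in this difference was not tested. Mono-biased and neutro-biased GMPs, of similar depth (13457 and 14822 UMIs), differed by more than their intervals in this library and in the control GMP library (18.1%, 14.9 to 21.6, against 5.84%, 3.44 to 9.19).

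**Figure D2:**
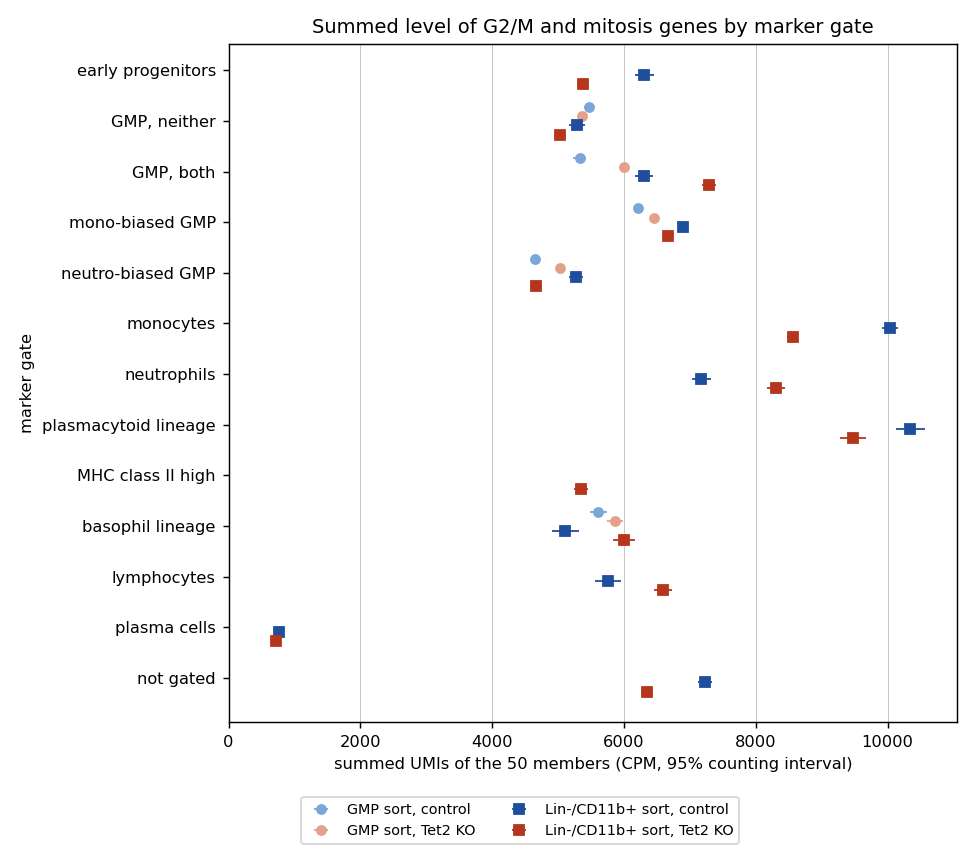
Summed CPM of the 50 members (horizontal axis) by marker gate, with 95% counting intervals, for control (blue) and Tet2 KO (red) of the GMP sort (circles) and the Lin-/CD11b+ sort (squares). Plasmacytoid cells and monocytes of the control Lin-/CD11b+ library lie at 10346 and 10039 CPM, and plasma cells of both libraries lie at 763 and 728 CPM.

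**Figure D3:**
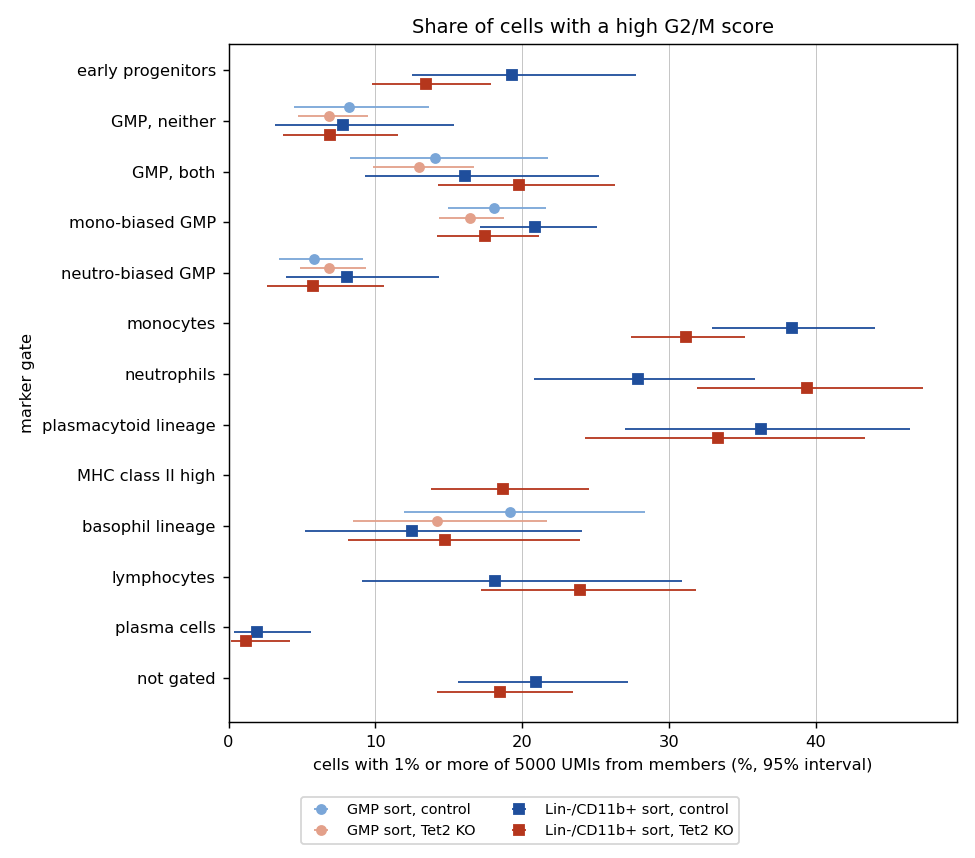
Percentage of cells whose score was 1% or more (horizontal axis) by marker gate, with exact binomial 95% intervals, for the same 4 libraries and symbols. Monocytes of the control library are at 38.4% and neutro-biased GMPs at 8.06%, while control and Tet2 KO intervals overlap in every gate named in the text.

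Single members followed the sum to different degrees. Over 10 gates of the control Lin-/CD11b+ library, plasma cells left out, 37 members were highest in the plasmacytoid lineage and 10 in monocytes. In the Tet2 KO library, over its own gates, 42 were highest in the plasmacytoid lineage and 4 in monocytes. The other members of the control library were Tubb4b (371 CPM) and the kinesin Kif20b (42.6 CPM), highest in early progenitors, and Cks2, highest in the basophil lineage at 754 CPM with 750 CPM in neutro-biased GMPs. Cks2 thus stood high in the gates where the sum was lowest.

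Among cyclins and partners of Cdk1 in that library, Cdk1 ranged from 68.3 CPM in the basophil lineage to 181 CPM in monocytes, and Ccna2 (cyclin A2) from 35.3 CPM in neutro-biased GMPs to 135 CPM in the plasmacytoid lineage. Ccnb1 spanned 33.1 to 100.4 CPM and Ccnb2 81.8 to 184 CPM. Cks1b was lowest in neutrophils, 125 CPM against 528 CPM in the plasmacytoid lineage, and there it parted from Cks2, which had 508 CPM in neutrophils. Of the kinases, Aurkb, the Aurora kinase of the passenger complex, ranged 5.89-fold, from 20.7 CPM in the basophil lineage to 122 CPM in the plasmacytoid lineage. Aurka, the Aurora kinase of the spindle poles, ranged from 16.6 to 53.8 CPM and Plk1 from 14.5 to 52.6 CPM between the same gates.

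Cdc20, which activates the APC/C, varied least of all 50, 1.77-fold, from 64.0 CPM in GMPs with neither set to 114 CPM in the plasmacytoid lineage. Ube2c, its partner in ending mitosis, varied 3.37-fold (151 to 508 CPM) between those gates, with 302 CPM in neutrophils. Spindle members ranged widely, from Tubb4b (1.95-fold) and Kif20b (2.16-fold) to Kif23, the kinesin of the spindle midzone, which spanned 17.1 to 131 CPM (7.68-fold), with 113 CPM in monocytes, and Psrc1, which spanned 1.42 to 19.1 CPM (13.4-fold, on few UMIs). Among chromatin members, Top2a ranged from 140 CPM in neutrophils to 552 CPM in the plasmacytoid lineage, and Mki67, which coats mitotic chromosomes, from 50.3 CPM in neutro-biased GMPs to 203 CPM in the plasmacytoid lineage. Hmgb2 was highest in monocytes at 3771 CPM and second in neutrophils at 3507 CPM, against 1556 CPM in neutro-biased GMPs.

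**Figure D4:**
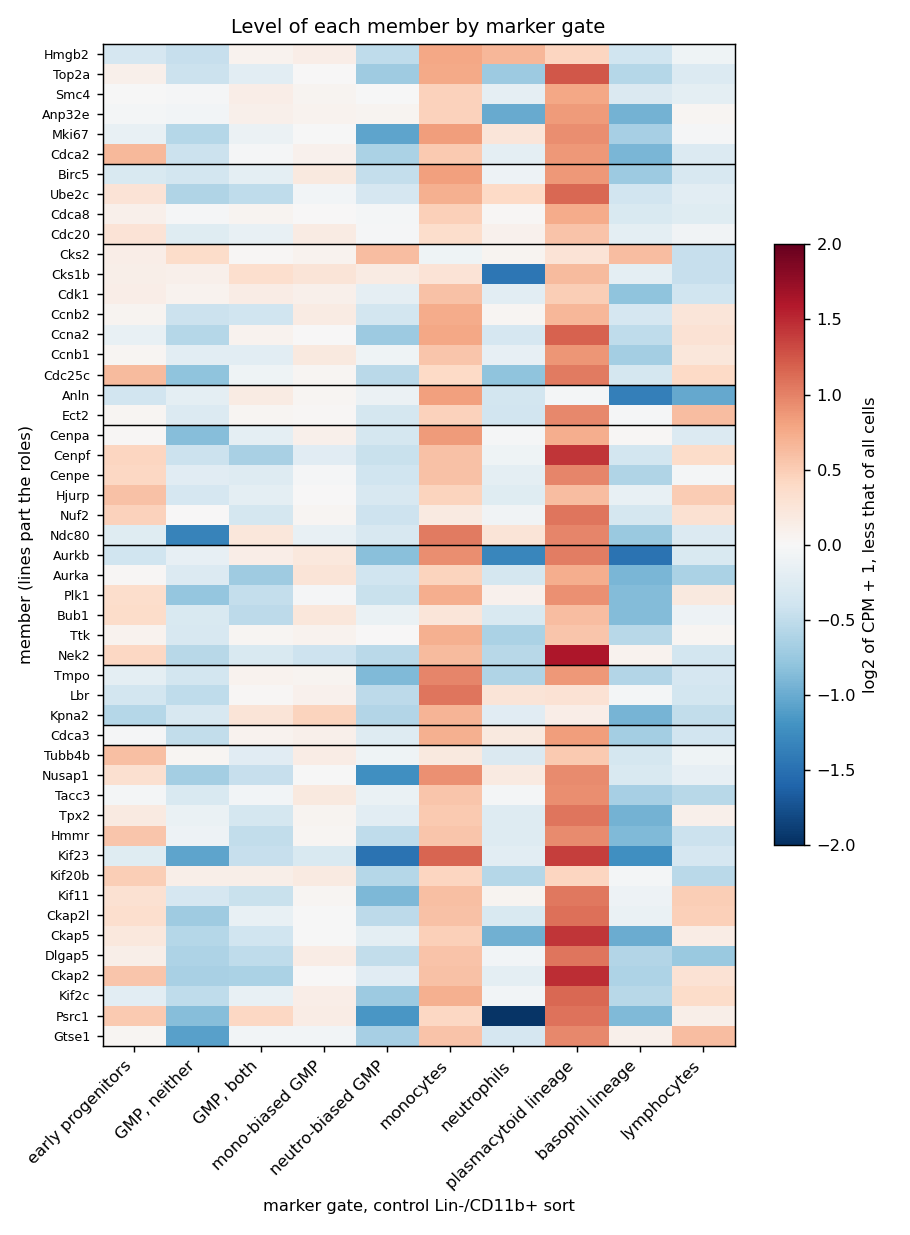
Level of each of the 50 members (rows, parted by role) in 10 marker gates of the control Lin-/CD11b+ library (columns), as log2 of CPM + 1 less the value in all cells of that library; red is higher and blue lower. The plasmacytoid and monocyte columns are red for nearly every member, and Cks1b, Anp32e, Aurkb and Psrc1 are blue in neutrophils where Hmgb2 and Ube2c are red.

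The neutrophil gate joined cells of different maturity. Of its 147 control cells, the 37 with 10 or more Retnlg UMIs of 5000, a gene of late neutrophil maturation, had 4189 CPM of members, and the other 110 had 8175 CPM. The shares of cells at or above 1% were 8.11% (1.70 to 21.9) and 34.5% (25.7 to 44.2). Top2a was 82.2 and 160 CPM in these cells. The same split in Tet2 KO gave 4811 CPM (24 cells) and 8894 CPM (141 cells). The division by Retnlg was chosen after the values were seen.

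Within the cells at or above 1%, members that appear earlier (Ccna2, Cdk1, Top2a, Mki67, Smc4, Tmpo) were set against members that peak in mitosis (Ccnb1, Cdc20, Plk1, Aurka, Cenpa, Cenpe, Ccnb2, Hmmr). The later members made up 48.0% of the UMIs of both groups in the control GMP library (47.0 to 49.0) and 48.2% in Tet2 KO (47.4 to 49.0), intervals that overlap. In the control Lin-/CD11b+ library the share was 41.6% in monocytes (40.2 to 43.1) and 41.1% in the plasmacytoid lineage, against 51.3% in early progenitors (48.2 to 54.4) and 59.0% in neutro-biased GMPs (54.2 to 63.8, 10 cells). The lowest share of this library was in GMPs with both sets, 40.4% (36.5 to 44.5, 15 cells). In the control GMP library that gate had 51.3% (47.8 to 54.7) and neutro-biased GMPs 50.6% (47.3 to 53.9), so the share of a gate differed between libraries. In the control Lin-/CD11b+ library monocytes and plasmacytoid cells thus had relatively more of the earlier members than early progenitors did, beyond counting error, and were not alone in this. In the Tet2 KO library the share was 41.3% in monocytes (40.1 to 42.5), 45.4% in the plasmacytoid lineage (43.0 to 47.8) and 50.2% in early progenitors (47.7 to 52.6). There the plasmacytoid share was again below that of early progenitors, with intervals that overlap slightly, and the monocyte interval lay apart. Overlap of intervals is no test, and the difference was not tested. In early progenitors the intervals of control and Tet2 KO overlap as well.

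In the GMP sort the members stood at 5635 CPM in control (5604 to 5666) and 5890 CPM in Tet2 KO (5867 to 5913), a log2 ratio of Tet2 KO over control of 0.06. This ratio rests on Hmgb2: it was 1729 CPM in control and 1950 CPM in Tet2 KO, and the other 49 members gave a log2 ratio of 0.013 (0.0010 to 0.024). By gate the log2 ratios of the sum were -0.03 in GMPs with neither set (5472 and 5369 CPM, control and Tet2 KO), 0.17 in GMPs with both (5326 and 6005 CPM), 0.05 in mono-biased GMPs (6218 and 6449 CPM), 0.11 in neutro-biased GMPs (4656 and 5023 CPM) and 0.06 in the basophil lineage (5610 and 5864 CPM). With 1 library per genotype, members past 1.5-fold on CPM + 1 were counted and read beside the share of all genes past that fold. Over all GMP-sort cells, 0 of 50 members were 1.5-fold higher, where 0.795% of 11947 genes were, and 0 were 1.5-fold lower, where 2.34% were. In mono-biased GMPs the counts were again 0 and 0, beside 1.5% and 2.62% of genes, with 27 of 50 members below 0 and a median log2 ratio of -0.0042 against -0.02 over all genes. In the other gates 2 of 50 were lower and 0 higher in GMPs with neither set (beside 4.61% and 3.89% of genes), 2 higher and 0 lower in GMPs with both (5.05% and 7.06%), 0 either way in neutro-biased GMPs (2.56% higher, 4.46% lower) and, of 48 measured, 3 higher and 2 lower in the basophil lineage (6.82% and 9.86%).

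The lowest ratio in the GMP sort, ranked on CPM + 1, belonged to Kpna2, an importin that carries proteins into the nucleus, with 46.2 CPM in control and 33.9 CPM in Tet2 KO (log2 ratio on CPM -0.45, -0.56 to -0.33). Psrc1, a spindle protein, followed with 7.99 and 5.83 CPM (-0.46 on CPM, -0.40 on CPM + 1) and Kif11, the motor that pushes the spindle poles apart, with 26.7 and 21.0 CPM (-0.35, -0.50 to -0.20). The highest were Hmgb2 (0.17, 0.16 to 0.19), Lbr (74.3 and 82.3 CPM, 0.15) and Birc5 (198 and 219 CPM, 0.14). Cdk1 (125 and 124 CPM), Top2a (187 and 189 CPM), Ube2c (176 and 178 CPM), Cdc20 (76.3 and 75.6 CPM) and Ccnb2 (91.0 and 89.4 CPM) had log2 ratios whose intervals hold 0. Aurka (28.3 and 30.1 CPM), Aurkb (56.6 and 54.1 CPM), Plk1 (25.7 and 24.1 CPM) and Ccnb1 (53.1 and 55.6 CPM) did as well.

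The share of GMP-sort cells at or above 1% was 13.7% in control (11.8 to 15.7) and 12.2% in Tet2 KO (11.0 to 13.5), a difference within the intervals. The median score was 0.42% in control and 0.46% in Tet2 KO, while the 90th percentile was 1.08% and 1.04%. Without Hmgb2 the medians were 0.28% and 0.30% and the 90th percentiles 0.78% and 0.74%. Over all cells of the sort the median was thus slightly higher in Tet2 KO and the upper end slightly lower, and the gates differed in this. Medians were 0.48% and 0.52% in mono-biased GMPs and 0.46% and 0.42% in GMPs with neither set, while in neutro-biased GMPs the median was 0.36% in both libraries and the 90th percentile 0.82% and 0.92%.

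In the Lin-/CD11b+ sort the members stood at 6405 CPM in control (6372 to 6438) and 6305 CPM in Tet2 KO (6279 to 6332), a log2 ratio of -0.02. The make-up of the libraries and the levels within gates moved in opposite directions there. Differences in the shares of UMIs per gate, weighted by the mean level of both libraries, added 237 CPM in Tet2 KO. Each gate adds to this part where its share was larger, whatever its level. The terms ran from -372 CPM for mono-biased GMPs to 345 CPM for monocytes, with 221 CPM for MHC class II high cells. Plasma cells, low in members, had 10.7% of UMIs in control and 6.71% in Tet2 KO, with a term of -30.0 CPM. No gate is named here as the source of the 237 CPM. Differences in level within gates, weighted by the mean share of both libraries, took 337 CPM off. No member was past 1.5-fold in either direction over all cells (0 and 0 of 50, beside 3.25% and 1.46% of 12726 genes). Below 0 were 37 of the 50, with a median log2 ratio of -0.12 against 0.08 over all genes. All 6 mitotic kinases and 13 of 15 spindle members were below 0, and of 6 chromatin members 4 were.

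In early progenitors of this sort the members stood at 6310 CPM in control (6168 to 6454, 114 cells) and 5373 CPM in Tet2 KO (5286 to 5461, 297 cells), a log2 ratio of -0.23 (-0.27 to -0.19). Of the 50 members 44 were below 0, with a median of -0.24 against 0.01 over all genes, and 4 were 1.5-fold lower, beside 5.88% of 8689 genes. None of the 50 was 1.5-fold higher, beside 9.05% of genes. The 4 lower members were Ccnb1 (55.2 and 29.4 CPM, control and Tet2 KO), Ube2c (275 and 164 CPM), the phosphatase Cdc25c (16 and 17 UMIs) and Nek2 (16 and 23 UMIs). All 7 cyclins and Cdk1 partners and all 6 kinetochore members were below 0.

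Among those with at least 100 UMIs in a library, Ube2c had the lowest ratio (-0.75, -0.95 to -0.54), then Cenpe, the motor of the kinetochore (63.6 and 42.3 CPM, -0.59, -1.02 to -0.15), and Hmmr, a spindle-pole protein (63.6 and 42.7 CPM, -0.58, with an interval that ends at -0.14). Cdc20 was 92.0 CPM in control and 62.5 CPM in Tet2 KO (-0.56, -0.91 to -0.20). Tmpo (123 and 130 CPM), Anp32e (160 and 164 CPM) and Top2a (251 CPM in Tet2 KO, a log2 ratio of 0.01) had the highest ratios, with intervals that hold 0.

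The share of early progenitors at or above 1% was 19.3% in control (12.5 to 27.7) and 13.5% in Tet2 KO (9.80 to 17.9), and these intervals overlap. The difference in the sum was not even over the gate. Cells with a UMI of Hlf, Procr or Mecom, genes of stem cells, stood at 5300 CPM (45 control cells) and 5170 CPM (124 Tet2 KO cells), and cells without one stood at 6817 CPM (69 cells) and 5503 CPM (173 cells). This division was chosen after the values were seen. Markers of conventional dendritic cells summed to 113 CPM in the control gate and 440 CPM in the Tet2 KO gate, and the part of such cells in the difference was not tested.

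In monocytes the members stood at 10039 CPM in control (9919 to 10160) and 8559 CPM in Tet2 KO (8480 to 8638, 574 cells), a log2 ratio of -0.23 (-0.25 to -0.21). Of the 50 members 47 were below 0, with a median of -0.31 against 0.02 over all genes, and 6 were 1.5-fold lower, beside 4.6% of 9524 genes. None was 1.5-fold higher, beside 7.57%. The 6 were Ndc80, Kif23, Kif2c, Plk1, Nusap1 and Aurkb. The 3 members above 0 were Nuf2, Anln and Tmpo.

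Ndc80, which joins kinetochores to microtubules, was 52.0 CPM in control and 30.5 CPM in Tet2 KO monocytes (-0.77, with an interval that ends at -0.43). Its partner Nuf2 was 27.3 and 30.5 CPM (0.16, -0.25 to 0.58), so the log2 ratios of these subunits of the same complex differ in sign. Kif23 was 113 and 67.7 CPM (-0.73, -0.96 to -0.51), and Kif2c, which takes microtubules apart at centromeres, 26.2 and 15.7 CPM (-0.73, -1.21 to -0.25). Plk1 was 45.6 and 29.0 CPM (-0.65, -1.01 to -0.30) and Aurkb 115 and 76.2 CPM (-0.60, -0.81 to -0.38). Every mitotic kinase of the list was below 0 here.

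Cdk1 was 181 CPM in control and 123 CPM in Tet2 KO monocytes (-0.55, -0.73 to -0.38), close to the 1.5-fold limit, and Nusap1 186 and 120 CPM (-0.63, -0.80 to -0.46). Ube2c (373 and 279 CPM, -0.42), Top2a (394 and 307 CPM, -0.36) and Birc5 (408 and 322 CPM, -0.34) lay between. Ccnb1 (79.3 and 70.0 CPM, -0.18, -0.43 to 0.07), Tmpo (276 and 278 CPM) and Anp32e (228 and 226 CPM) had intervals that hold 0. Hmgb2 was 3771 and 3438 CPM (-0.13), so the sum without it differed more (-0.29, -0.32 to -0.26).

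The share of monocytes at or above 1% was 38.4% in control (32.9 to 44.1) and 31.2% in Tet2 KO (27.4 to 35.2), intervals that overlap. Median scores were 0.69% and 0.60%, and 90th percentiles 1.98% and 1.69%. Among cells at or above 1% the median score was 1.70% in control and 1.54% in Tet2 KO (119 and 179 cells). The make-up of the gate differed as well. A UMI of Clec4a1 or Clec4a3, genes of mature monocytes, was found in 21.6% of control and 36.9% of Tet2 KO cells. With such a UMI the members stood at 7855 and 6590 CPM, and 23.9% and 23.1% of cells were at or above 1%. Without it they stood at 10545 and 9513 CPM and 42.4% and 35.9%, a division chosen after the values were seen.

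The neutrophil marker list summed to 1241 CPM in control and 4740 CPM in Tet2 KO monocytes. S100a8 (723 and 3609 CPM) and S100a9 (371 and 891 CPM) made up most of it. Of the other genes of the list, Retnlg (10.1 and 88.4 CPM) and Mmp8 (28.8 and 52.7 CPM) were higher in the Tet2 KO library, Cd177 (22.4 and 8.53 CPM) and Ltf (6.64 CPM in Tet2 KO) were lower, and Camp (32.5 and 31.7 CPM) and Ngp (38.9 and 38.7 CPM) differed by little. The part of these genes in the difference of the members was not tested. Over UMIs without immunoglobulin and neutrophil marker genes the members stood at 10068 CPM in control and 8608 CPM in Tet2 KO monocytes.

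Mono-biased GMPs of the Lin-/CD11b+ sort stood at 6895 CPM in control and 6663 CPM in Tet2 KO (log2 ratio -0.05). Of the 50 members 40 were below 0, with a median of -0.17 against 0.03 over all genes, 2 were 1.5-fold lower beside 2.88% of genes, and 0 were higher beside 4.22%. Those 2 were Kpna2 and Psrc1. Nusap1 (96.9 and 69.7 CPM, -0.48, -0.65 to -0.30), Ube2c (219 and 164 CPM, -0.42, -0.53 to -0.30) and the phosphatase-binding Cdca2 had low ratios too, while Anp32e (172 and 207 CPM, 0.26, 0.15 to 0.38) and Tmpo (146 and 167 CPM, 0.20, 0.07 to 0.33) had high ones. The 90th percentile of the score was 1.34% in control and 1.14% in Tet2 KO, beside medians of 0.56% and 0.58%.

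Neutro-biased GMPs stood at 5268 and 4662 CPM (-0.18), with 5 of 47 measured members 1.5-fold lower beside 5.73% of genes and 0 higher beside 7.1%. GMPs with neither set stood at 5281 and 5033 CPM (-0.07), with 1 of 49 higher beside 9.99% and 3 lower beside 5.03%. GMPs with both sets went the other way, with 6304 and 7295 CPM (0.21), and 4 members higher beside 10.7% of genes and 1 lower beside 6.47%. Plasmacytoid cells, 102 in each library, stood at 10346 CPM in control and 9469 CPM in Tet2 KO (-0.13), and 1 of 50 members was 1.5-fold higher beside 7.17% of genes and 3 lower beside 9.22%. Aurkb was 122 and 81.9 CPM there (-0.57, -1.02 to -0.13) and Mki67 203 and 152 CPM (-0.42, -0.75 to -0.09). Their 90th percentile of the score was 2.59% in control and 2.06% in Tet2 KO. The shares of cells at or above 1%, 36.3% and 33.3%, had overlapping intervals.

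Neutrophils were higher in Tet2 KO on this scale, with 7173 CPM in control (147 cells) and 8311 CPM in Tet2 KO (165 cells), a log2 ratio of 0.21. The ratio turned on what the UMIs were divided by. Immunoglobulin and neutrophil marker genes took 46.2% of control and 36.0% of Tet2 KO UMIs in this gate, and over the other UMIs the members stood at 13321 and 12988 CPM. All genes had a median log2 ratio of 0.33 there, above the median of the members (0.19), and 8 of 47 members were 1.5-fold higher beside 28.8% of genes and 1 lower beside 3.87%. The shares of cells at or above 1% were 27.9% (20.8 to 35.9) and 39.4% (31.9 to 47.3), and these intervals overlap. The remaining gates were small or unnamed. The basophil lineage stood at 5112 CPM in control (56 cells) and 6001 CPM in Tet2 KO (88 cells), with 8 of 40 measured members higher beside 12.9% of genes and 0 lower beside 10.6%, and lymphocytes at 5755 and 6589 CPM, with 2 of 47 higher beside 19.9% and 3 lower beside 7.23%. Cells without a gate stood at 7230 and 6350 CPM, with 0 of 50 higher beside 7.63% and 6 lower beside 4.44%.

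**Figure D5:**
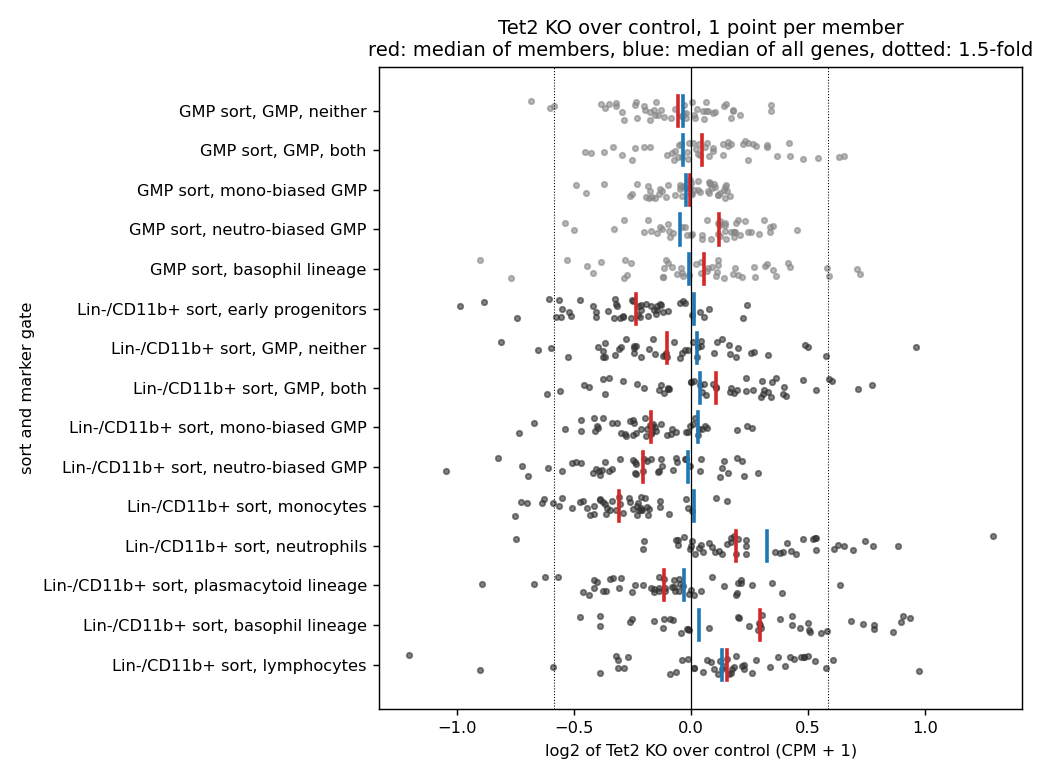
Log2 ratio of Tet2 KO over control on CPM + 1 (horizontal axis) for each member (points) in each sort and gate, with the median of the members (red), the median of all genes (blue) and 1.5-fold (dotted). The monocyte, early progenitor and mono-biased GMP medians of the Lin-/CD11b+ sort (-0.31, -0.24 and -0.17) lie left of the medians of all genes, and the GMP-sort medians lie near them.

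A few members had the same sign in the early progenitor and GMP gates. Over 9 comparisons, early progenitors in the Lin-/CD11b+ sort and the 4 kinds of GMP in each sort, Kpna2 was below 0 in 9 of 9 (-0.67 to -0.13 on CPM + 1), Smc4 in 9 of 9 (-0.55 to -0.10) and Aurkb in 9 of 9 (-0.37 to -0.01). These are 3 of the 47 members measured in all 9 (6.38%), beside 211 of 7000 genes (3.01%), and 0 members were above 0 in all 9, beside 2.51% of genes. In the basophil lineage Smc4 was below 0 in both sorts, while Kpna2 (16.8 CPM in control and 19.1 CPM in Tet2 KO) and Aurkb (36.8 and 39.7 CPM) had ratios above 0 in the GMP sort, with intervals that hold 0. Cks2 and Cdk1 were above 0 in 1 of 9 each, and Anp32e in 8 of 9. The 9 comparisons come from the same pair of mice and are no replicates. Kpna2 in mono-biased GMPs was 60.6 CPM in control and 42.8 CPM in Tet2 KO of the GMP sort (-0.50, -0.65 to -0.34), and 72.0 and 44.9 CPM in the Lin-/CD11b+ sort (-0.68, -0.90 to -0.47). In the plasmacytoid lineage it was 57.4 and 75.5 CPM, with an interval that holds 0.

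Genes of the same pathway outside the list were counted next to the members. Of 46 other mitosis genes (checkpoint, condensin, kinesin and kinetochore genes), 44 were below 0 in monocytes with a median log2 ratio of -0.28, 7 were 1.5-fold lower beside 4.6% of all genes and 1 was higher beside 7.57%. In early progenitors 29 of 45 measured were below 0 with a median of -0.13, 1 was 1.5-fold lower beside 5.88% of all genes and 2 were higher beside 9.05%. APC/C subunits and inhibitors had a median of -0.07 in monocytes, with 0 of 17 past 1.5-fold in either direction, and the regulators of G2/M genes (MuvB subunits, B-Myb, FoxM1 and Cdk1 control) a median of -0.07, with 1 of 22 lower. In the GMP sort the other mitosis genes had a median of 0.0015 over all cells, with 0 of 46 past 1.5-fold in either direction, beside 2.34% of all genes lower and 0.795% higher.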

How the data were processed

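The authors aligned reads and counted UMIs with Cell Ranger 3.1.0 against mm10 and filtered cells in Seurat (submitters' processing notes), and deposited whole UMI counts, genes by cells, and a table that names the library of every cell. The sources used here do not name the gene annotation. The kit is named v3.1 in the series text and v2 in the protocol. The methods state limits of 200 genes, 5000 UMIs and 5% mitochondrial counts per cell, and 413 of 8969 deposited cells lie at or above the last. All cells were kept. No sample column was left unused.

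Groups came from the labels. UMIs of each gene were summed per library and gate and divided by all UMIs of those cells to give CPM. Scores, shares of cells, gates and correlations used cells thinned to 5000 UMIs (seed 1). A gene was measured in a comparison with 20 or more UMIs in both libraries together, folds were computed on CPM + 1, and 1.5-fold stood in for a test, since each group is 1 library. Gates needed, of 5000 UMIs, 50 Jchain (plasma cells), 3 lymphoid, 10 basophil, 3 plasmacytoid, 50 neutrophil or 20 MHC class II UMIs, in that order. Monocytes came next, with 5 monocyte UMIs and fewer than 20 of the primary granule genes. Early progenitors then needed 2 early progenitor UMIs and no monocytic or granulocytic UMI. GMPs came last, with 20 of the primary granule genes. They were split by whether 1 or more monocytic UMIs, granulocytic UMIs, both or neither were found. These minima were chosen after marker levels in these data were seen, and the members and gene lists were chosen with earlier results of these data known. Scrublet marked 31 cells (0.346%), which is too few for it to have worked, so doublets were kept.

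The text names the 12 members with the most UMIs, the 3 highest and 3 lowest ratios per gate among members with 100 or more UMIs in a library, the 5 highest and lowest correlations and 15 members set by name. Others were named after their values were seen. In simulated Poisson counts for all cells of a sort, 98.5% (GMP sort) and 97.5% (Lin-/CD11b+ sort) of 200 genes changed 2-fold were past 1.5-fold. The changed genes had 200 or more UMIs. These rates do not cover single gates, genes with fewer UMIs or variation between mice and preparations. Alternatives were TMM factors, another offset, no filter, the mean score, leaving out Hmgb2, full-count gates, clusters, cells under 5% mitochondrial counts, cells without the top 5% of Scrublet scores, other score limits and unthinned cells. Tools were Python 3.11.15, NumPy 2.4.6, pandas 2.3.3, SciPy 1.17.1, scanpy 1.11.5, leidenalg 0.10.2, matplotlib 3.10.9, R 4.3.3 and edgeR 4.0.16 (for TMM factors alone).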

Additional observations from a re-analysis of the deposited data

Results flagged for a closer look

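In 3 sets of cells the summed level of the 50 members had opposite signs in the sorts, as log2 of Tet2 KO over control. It was 0.064 over all cells of the GMP sort and -0.023 over all cells of the Lin-/CD11b+ sort. In mono-biased GMPs it was 0.053 in the GMP sort and -0.049 in the Lin-/CD11b+ sort. Without Hmgb2 the value of mono-biased GMPs in the GMP sort was 0.005 (-0.012 to 0.022). With clusters in place of gates the sign in the Lin-/CD11b+ sort changed, so the contrast in these cells was not stable. In neutro-biased GMPs it was 0.11 in the GMP sort and -0.18 in the Lin-/CD11b+ sort. Each value compares 1 library with 1 library, and the difference between the sorts was not tested. The share of neutro-biased GMPs at or above a score of 1% was 5.84% in control and 6.88% in Tet2 KO of the GMP sort (3.44 to 9.19 and 4.89 to 9.36), and 8.06% and 5.73% in the Lin-/CD11b+ sort (3.94 to 14.3 and 2.65 to 10.6).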

How the results depend on the processing

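No paired analysis was possible because each genotype and sort is 1 library, and the shared number in the labels marks no second pair. For the same reason no replicate could be left out, and counting intervals understate the error of every ratio. Of the summed ratios by sort and gate, the sign was kept in 17 of 19 with TMM factors, 18 of 19 with the mean score, 19 of 19 without Hmgb2 and in cells under 5% mitochondrial counts, 17 of 18 without the top Scrublet scores, 13 of 15 with full-count gates and 10 of 13 with clusters. In the GMP sort the exceptions were GMPs with neither set and the basophil lineage. In the Lin-/CD11b+ sort they were neutrophils, plasma cells, mono-biased GMPs and ungated cells. The early progenitor and monocyte ratios kept their sign in each alternative.

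Over all GMP-sort cells the log2 ratio of the sum was 0.13 with TMM factors, 0.054 as the mean score and 0.013 without Hmgb2. Over all Lin-/CD11b+ cells it was -0.10 with TMM factors, -0.077 as the mean score, -0.074 without Hmgb2 and -0.088 over UMIs without immunoglobulin and neutrophil marker genes. TMM factors also moved the split of members, from 28 to 19 of 50 below 0 in the GMP sort and from 37 to 47 in the Lin-/CD11b+ sort. In early progenitors the ratio was -0.31 with clusters, -0.036 in cells with Hlf, Procr or Mecom and -0.31 in cells without. In monocytes it was -0.26 as the mean score, -0.29 without Hmgb2, -0.29 with full-count gates, -0.19 with clusters, -0.25 with Clec4a1 or Clec4a3 and -0.15 without. With CPM + 10, which shrinks ratios of low members, 2 early progenitor and 3 monocyte members were 1.5-fold lower. The share of all genes past 1.5-fold was computed on CPM + 1 alone, so these counts have no background and are not read as a result.

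In the control Lin-/CD11b+ library, log2 of monocytes over neutro-biased GMPs was 0.93, and 0.98 with full-count gates and 0.76 without Hmgb2. Log2 of the plasmacytoid lineage over neutro-biased GMPs was 0.97, and 1.04 with full-count gates, and clusters gave no plasmacytoid value. With score limits of 0.5% and 2%, the shares of cells were 43.1% and 0% in control and 47.0% and 0% in Tet2 KO of the GMP sort, and 46.0% and 3.43%, then 46.6% and 2.12%, in the Lin-/CD11b+ sort. The exact binomial intervals of the 0 of 1258 and 0 of 2719 cells of the GMP sort reach up to 0.293% and 0.136%. Without thinning the median r was 0.50, 0.45, 0.59 and 0.52 in the same order of libraries. The cause of the other shifts was not tested. The scaling without marker genes and the splits of gates were added after the data were seen.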

Other observations

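Genes of S phase and DNA replication (45 genes) marked other cells than the G2/M and mitosis genes did among GMPs. With a limit of 0.5% of thinned UMIs for the S phase list, set after a limit of 1% left almost no cell, 14.9% of control and 11.3% of Tet2 KO cells of the GMP sort were above it, and 19.0% and 17.6% of the Lin-/CD11b+ sort. In the control GMP library 3 of 172 cells at or above 1% for the G2/M genes passed the S phase limit (1.74%), against 185 of 1086 other cells (17.0%). Over all cells of that library, which share depth and preparation, the scores had r = -0.23. By gate r was lowest in mono-biased GMPs (-0.42), then -0.33 in GMPs with both sets and -0.28 in GMPs with neither. In neutro-biased GMPs it was -0.22, and in the basophil lineage 0.12. In control monocytes 32.6% of cells passed the S phase limit (27.4 to 38.1) and in Tet2 KO monocytes 25.3% (21.8 to 29.0). Neutrophils had few S phase cells, 2.72% in control and 2.42% in Tet2 KO, beside 27.9% and 39.4% past the G2/M limit, with Hmgb2 at 48.9% of member UMIs in the control gate. No plasma cell of 153 passed the S phase limit in control, with an exact binomial interval that reaches up to 2.38%. In early progenitors the median log2 ratio of Tet2 KO over control was -0.02 for the S phase list and -0.24 for the G2/M and mitosis genes.

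Among 2358 genes outside the list, those most like the summed members over cells of the control GMP library were Tubb5 (r = 0.54), H2afx (0.53), Tuba1b (0.50), Arl6ip1 (0.48), Lockd (0.45), Hist1h2ap (0.44) and Ube2s (0.43). Their r in the Tet2 KO GMP library was 0.38 to 0.45. Ung, a repair enzyme of replicating DNA, was lowest at -0.28, followed by Plac8 at -0.27. CDK inhibitors and quiescence genes had 7 of 8 measured members below 0 in the GMP sort, with a median log2 ratio of -0.36 against -0.05 over all genes, and 2 of 8 were 1.5-fold lower beside 2.34% of all genes. In the Lin-/CD11b+ sort 5 of 10 were below 0, with a median of 0.03 against 0.08.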
